A study of Homo sapiens with 2 samples.

Results

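The numbered zinc finger (ZNF) genes of human chromosome 19 were examined for binding of JARID2, a protein that joins the Polycomb complex PRC2. Members were the rows of the authors' annotated peak list on chromosome 19 whose gene symbol was ZNF followed only by digits. The rule took 204 of 67071 listed peaks, which carried the names of 125 genes. It used position and name and no measured value, so peak heights could be described freely. A peak is named for the gene of the nearest transcript start, so positions within genes depend partly on that naming.

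The data came from untreated MDA-MB-231 cells, a human triple-negative breast cancer line, by chromatin immunoprecipitation followed by sequencing (ChIP-seq). The labels name 1 library precipitated with a polyclonal JARID2 antibody and 1 library of input DNA with no antibody. Only the peak list of the JARID2 library was analysed here. The library depth is unknown and there was no replicate, so intervals cover counting error only, and a peak list of a chromatin factor does not measure markers of the cell type. Peaks and genes are not replicates of a condition, so differences between sets of peaks are given with exact 95% intervals (Clopper-Pearson for shares, Poisson for tags and peaks per Mb) and were not tested.

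Most of these genes encode proteins with tandem C2H2 zinc fingers, and many also carry a KRAB domain, which recruits the corepressor TRIM28 and the histone H3 lysine 9 methyltransferase SETDB1. The genes arose by repeated duplication and lie in clusters along chromosome 19. Their 3′ ends, which encode the finger arrays, are known in several human cell types to carry H3 lysine 9 trimethylation, while their promoters commonly lie in CpG-rich sequence. PRC2 places another repressive mark, H3 lysine 27 trimethylation, and JARID2 helps it to bind chromatin and DNA.

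The promoters of 4 genes are shown because their peaks overlapped a listed transcription start site (TSS) and carried the findings below. ZNF628 and ZNF69 had peaks at a false discovery rate (FDR) of at most 5%, ZNF584 had the most tags of any member peak, and ZNF274 encodes a protein known to bring SETDB1 to the 3′ ends of other zinc finger genes. The sequences are from RefSeq on GRCh38.p14, from 250 bases before to 50 after the RefSeq start, on the plus strand and written 5′ to 3′. Capitals mark matches to the motifs searched on both strands, which were TTCCCGC (E2F-type), CCGCCAT (YY1-type), CCAAT and TATAAA. The RefSeq start may differ from the hg19 start that the peak was given to, and for ZNF584 it does. The shift in position between hg19 and GRCh38 at the nearby ZNF274, ZNF606 and ZNF446 puts the printed ZNF584 bases outside its peak. The 300 bases of ZNF628 lie at chr19:55476367-55476666, those of ZNF69 at chr19:11887532-11887831, those of ZNF584 at chr19:58408399-58408698 and those of ZNF274 at chr19:58182811-58183110.
ZNF628: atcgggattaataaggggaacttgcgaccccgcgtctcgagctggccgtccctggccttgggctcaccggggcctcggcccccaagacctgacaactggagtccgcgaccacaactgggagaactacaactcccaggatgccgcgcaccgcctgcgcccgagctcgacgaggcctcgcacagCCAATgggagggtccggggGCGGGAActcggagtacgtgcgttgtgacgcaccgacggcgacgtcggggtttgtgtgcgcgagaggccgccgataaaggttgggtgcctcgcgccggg
ZNF69: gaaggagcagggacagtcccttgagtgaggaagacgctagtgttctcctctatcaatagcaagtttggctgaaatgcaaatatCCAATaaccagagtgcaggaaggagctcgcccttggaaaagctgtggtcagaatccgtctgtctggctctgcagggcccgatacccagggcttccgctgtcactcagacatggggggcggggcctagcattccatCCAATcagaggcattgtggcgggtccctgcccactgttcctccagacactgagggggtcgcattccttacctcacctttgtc
ZNF584: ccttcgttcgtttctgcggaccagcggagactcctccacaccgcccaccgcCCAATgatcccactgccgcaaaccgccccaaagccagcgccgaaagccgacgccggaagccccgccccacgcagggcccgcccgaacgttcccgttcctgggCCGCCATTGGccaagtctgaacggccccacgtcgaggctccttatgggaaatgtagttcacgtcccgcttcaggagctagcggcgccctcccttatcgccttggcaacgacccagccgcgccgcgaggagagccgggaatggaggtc
ZNF274: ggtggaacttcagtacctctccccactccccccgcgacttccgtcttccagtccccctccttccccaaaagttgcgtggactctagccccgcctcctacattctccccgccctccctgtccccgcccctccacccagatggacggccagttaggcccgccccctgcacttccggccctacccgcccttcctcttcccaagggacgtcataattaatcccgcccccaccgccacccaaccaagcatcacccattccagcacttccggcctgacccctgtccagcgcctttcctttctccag

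The ZNF628 promoter held 36 CpG pairs and 67.7% G and C, with a CCAAT match followed by an E2F-type match. The ZNF584 sequence, which lies outside its peak, held 34 CpG pairs at 67.3% G and C, with a CCAAT match on each strand. The CCAAT match written in reverse shares bases with its YY1-type match. The ZNF274 promoter had 16 CpG pairs at 64.3% and no match to the 4 motifs. The ZNF69 promoter stood lowest of the 4, with 8 CpG pairs, 55.7% G and C and 2 CCAAT matches. A match describes letters and is not evidence of a bound site.

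Nearly all member peaks were weak, and a few promoters stood apart. Per the authors' list, the fold enrichment over the caller's background had a median of 5.95 (interquartile range 5.3 to 6.88), ranging from 3.36 to 13.89, and the same median over all listed peaks was 5.95. Tags per peak ranged from 9 to 83 with a median of 13, against 12 over all other peaks. The median width was 532 bp, against 510 bp over all other peaks. An FDR above 40% was listed for 130 member peaks (63.7%), where 70.3% of all listed peaks had one. The share was 65.8% for other chromosome 19 peaks and 63.7% for zinc finger peaks on other chromosomes. Weak peaks were thus common in the whole list and not particular to the members. The 3 most common values of the whole list, 6.18, 5.30 and 7.06, recurred in 24, 12 and 19 member peaks (11.8%, 5.88% and 9.31%), and in 11.3%, 8.85% and 8.51% of all peaks.

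At an FDR of at most 5% there were 5 member peaks, 2.45% of the 204 (0.80 to 5.63), where 1.24% of all listed peaks reached that limit. The share was 3.96% (2.06 to 6.82) for numbered zinc finger peaks on other chromosomes and 3.66% (2.74 to 4.77) for other chromosome 19 peaks. The member interval includes all of these values. All 5 peaks were of the promoter class, which reaches 3 kb from a TSS. Outside promoters there were 0 of 109 member peaks at that limit, which allows a share of up to 2.75% by the limit of 3 counts used here for a count of 0, and 0.459% of all other peaks outside promoters reached it.

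ZNF628 had the largest fold enrichment among the members, 13.89 with 67 tags (51.9 to 85.1) and an FDR of 0 (ENSG00000197483, chr19:55987142-55988143, hg19). Its peak overlapped the start of the listed transcript, and its summit lay 52 bp upstream of it, so the tags were centred on the gene's beginning. ZNF347 followed with 12.61, 44 tags (32.0 to 59.1) and an FDR of 0.30% (ENSG00000197937, chr19:53661071-53661956). ZNF787 had 12.36, 36 tags (25.2 to 49.8) and an FDR of 0 (ENSG00000142409, chr19:56631444-56632243), with a second, weak peak of 6.18 and 10 tags beside it. The ZNF347 and ZNF787 peaks lay inside their genes, with the nearer peak edge 301 and 376 bp past the listed start.

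ZNF69 had 8.73 with 35 tags (24.4 to 48.7) and an FDR of 1.17% (ENSG00000198429, chr19:11998573-11999612), its summit 708 bp past the start. ZNF649 was called with a fold enrichment of 5.82, below the member median, on 38 tags (26.9 to 52.2) over 1279 bp and an FDR of 2.89% (ENSG00000198093, chr19:52407620-52408898). The tag counts of ZNF347, ZNF787, ZNF69 and ZNF649 had overlapping counting intervals. Just outside the limit stood ZNF559, with 9.51, 36 tags (25.2 to 49.8) and an FDR of 5.46% (chr19:9434173-9435158), its tag count equal to that of ZNF787.

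**Figure D1:**
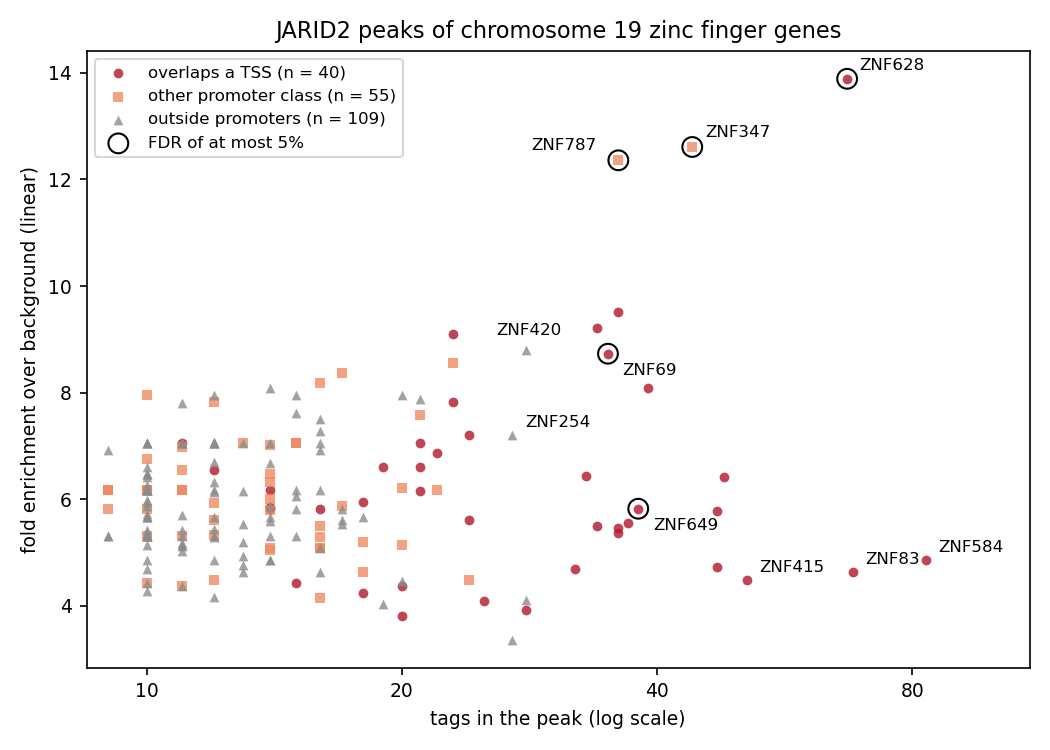
Each point is 1 of the 204 peaks of chromosome 19 zinc finger genes, with its tags on a log axis and its fold enrichment on a linear axis, marked by position. Rings mark the 5 peaks at an FDR of at most 5%. ZNF628, ZNF347 and ZNF787 stand above 12-fold, while ZNF584, ZNF83 and ZNF415 have more than 50 tags at a fold enrichment below 5.

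Widening the limit to an FDR of 20% gave 17 peaks at 17 genes, 8.33% (4.93 to 13.0) of the members, where 4.15% of all peaks were called. Other chromosome 19 peaks had 7.60% (6.28 to 9.10) and zinc finger peaks on other chromosomes 6.93% (4.34 to 10.4). Of the 17 peaks, 15 were of the promoter class and 12 overlapped a TSS. The 2 others were an intronic peak of ZNF420, whose product is a KRAB protein that binds p53, at 8.80 with 28 tags (18.6 to 40.5) and an FDR of 8.55%, and a 3′ UTR peak named for ZNF254 at 7.20 with 27 tags and an FDR of 12.8%. At −log10 p of at least 5 there were 43 member peaks, 21.1% (15.7 to 27.3), where 12.9% of all peaks were called and 17.5% (15.5 to 19.5) of other chromosome 19 peaks. The member share was thus above that of the whole list and its interval overlapped that of its own chromosome.

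Promoters took 95 of the 204 member peaks, 46.6% (39.6 to 53.7). All other peaks had 20.4% (20.1 to 20.7), other chromosome 19 peaks 47.1% (44.5 to 49.7) and zinc finger peaks on other chromosomes 36.3% (30.9 to 42.0). The promoter share was therefore as high in the rest of chromosome 19 as in the zinc finger genes. Introns held 25.5% of member peaks, distal intergenic sequence 13.2%, 3′ UTRs 4.90%, exons 3.43%, the 3 kb downstream of genes 3.92% and 5′ UTRs 2.45%. Distal peaks were 36.7% of all other peaks and 19.5% of other chromosome 19 peaks. The median distance from a TSS was 3278 bp for members and 3422 bp for other chromosome 19 peaks, against 14055 bp for all other peaks.

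**Figure D2:**
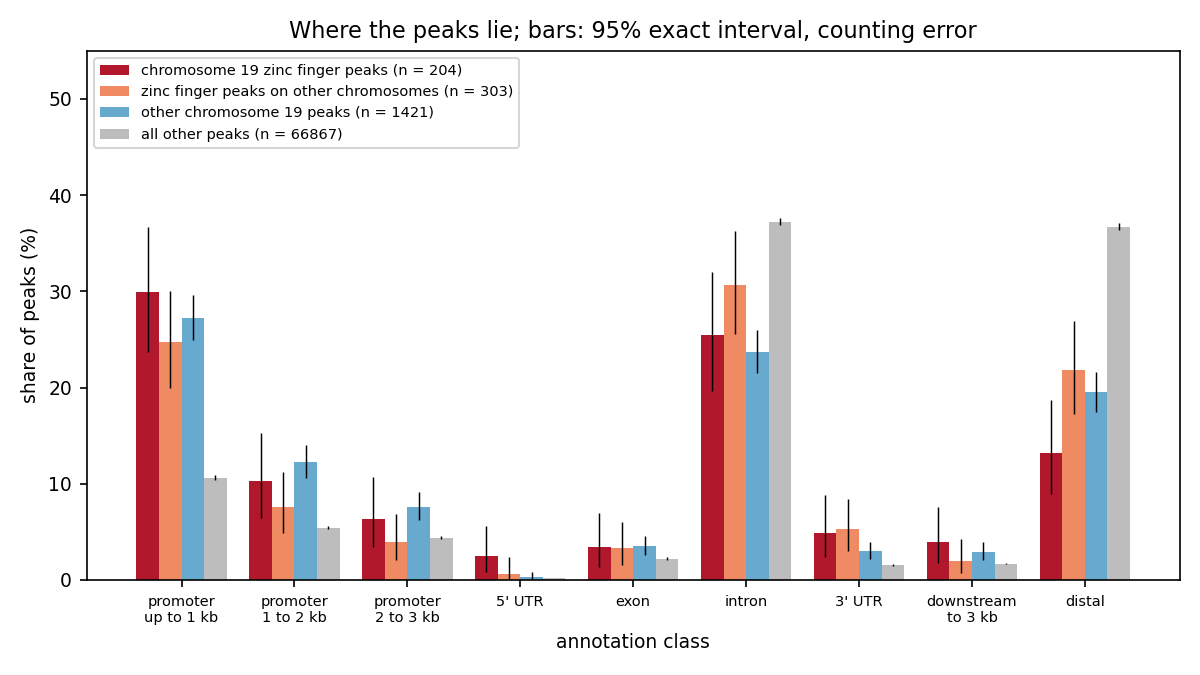
Bars give the share of peaks in percent for each annotation class, for chromosome 19 zinc finger peaks (n = 204), zinc finger peaks on other chromosomes (n = 303), other chromosome 19 peaks (n = 1421) and all other peaks (n = 66867), with exact 95% intervals for counting error. Within 1 kb of a TSS lay 29.9% of the member peaks, 27.2% of other chromosome 19 peaks and 10.6% of all other peaks.

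The deposited distance to the TSS treats the DNA strands differently, which bears on which peaks are promoter peaks. For genes on the plus strand it equalled the distance from the nearer peak edge in 100% of the 32626 listed peaks not overlapping a TSS, within 1 bp. For genes on the minus strand it equalled the distance from the farther edge in 100% of 30777 such peaks. ZNF347 and ZNF787 are minus-strand genes, and their called peaks are listed 1185 and 1174 bp from the TSS in the class of 1 to 2 kb. Measured from the nearer edge, 5 more member peaks, named for ZNF91, ZNF550, ZNF490, ZNF699 and ZNF675, would lie within 3 kb. The member promoter share would then be 49.0%, and the plus and minus strands would have 48.7% and 49.4%, where the deposited classes give 48.7% and 43.8%.

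Peaks that overlapped a TSS were wider and held more tags than the other member peaks, but had no higher fold enrichment. The 40 peaks at 39 genes had a median of 24.5 tags and 892 bp at a fold enrichment of 5.84. The 55 other promoter peaks had 13 tags, 527 bp and 6.18, and the 109 peaks outside promoters 12 tags, 475 bp and 5.82. TSS peaks of all other genes had 21 tags, 719 bp and 5.99. A TSS was overlapped by 19.6% (14.4 to 25.7) of member peaks, 16.5% (12.5 to 21.2) of zinc finger peaks on other chromosomes, 14.0% (12.2 to 15.9) of other chromosome 19 peaks and 5.43% (5.26 to 5.60) of all other peaks. At an FDR of at most 5% were 3 of the 40 member TSS peaks, 7.50% (1.57 to 20.4), against 16.0% (7.17 to 29.1), 17.6% (12.6 to 23.6) and 12.4% (11.3 to 13.5) of those 3 sets, each inside the member interval. The order differed at an FDR of at most 20%, with 12 of 40 member TSS peaks (interval 16.6% to 46.5%) against 10 of 50 (10.0% to 33.7%), 30.2% and 24.1%. With −log10 p of at least 5 it was 22 of 40 (38.5% to 70.7%) against 42.0%, 45.7% and 39.4%. Summits of the member TSS peaks lay a median of 72 bp past the start (interquartile range −173 to 216.5 bp), 19 upstream and 21 downstream, and 37 of 40 within 500 bp. Over the 204 peaks, tags rose with width at Spearman's rho 0.905 and fold enrichment did not, at −0.024. All peaks come from 1 library, and wider peaks collect tags over more bases. A wider peak is also more likely to cover a TSS. The greater width and tags of TSS peaks therefore follow partly from how the group was defined.

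Of the 21 member peaks of at least 1 kb, 17 overlapped a TSS, 81.0% (58.1 to 94.6). The share was 61.5% (40.6 to 79.8) of 26 such zinc finger peaks on other chromosomes, 55.1% (44.1 to 65.6) of 89 on the rest of chromosome 19 and 29.6% (27.9 to 31.2) of 2961 over all other peaks. Wide member peaks thus lay mostly at gene starts, and the interval overlapped those of both related sets. In every set a wider peak is more likely to cover a start, so part of each share follows from width alone.

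Among the 10 member peaks with most tags, 9 overlapped a TSS, and only 3 of the 10 had an FDR of at most 5%. ZNF584 led with 83 tags (66.1 to 103) over 1512 bp (chr19:58911722-58913233), at a fold enrichment of 4.85 and an FDR of 13.2%. ZNF83 had 68 tags (52.8 to 86.2) over 1999 bp, the widest member peak, at 4.63 and an FDR of 31.6% (chr19:53193464-53195462). These counts overlap that of ZNF628, whose fold enrichment was 13.89, so peaks with like tag counts differed widely in the caller's ratio. ZNF415 had 51 tags at 4.48 and an FDR of 23.7%, ZNF606 had 48 at 6.42 and 10.5%, and ZNF446 had 47 at 5.77 and 16.5%. ZNF544 also had 47 tags, at 4.73 and an FDR of 39.1%. ZNF331, a gene reported as imprinted in humans, had 39 tags at 8.08 and an FDR of 32.8%. The background under each peak is not part of the values used here, so these ratios could not be split into signal and background.

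By the window used here, peaks at the 3′ ends of the genes were few and weak. With a 3′-end peak defined as a summit from 5 kb inside to 3 kb past the end of the listed transcript and outside the promoter class, there were 14 at 13 genes, 6.86% (3.80 to 11.2) of the members. The share was 8.25% (5.41 to 11.9) of zinc finger peaks on other chromosomes, 6.26% (5.06 to 7.65) of other chromosome 19 peaks and 4.27% (4.12 to 4.42) of all other peaks. Their median fold enrichment was 5.98 on a median of 11 tags. At an FDR of at most 20% there were 0 of the 14, which allows a share of up to 21.4% by the limit of 3 counts. The listed transcript is the one with the nearest start and can be a short one, so this window can miss the end of the full gene. Leaving out the promoter class also drops peaks near the ends of short transcripts. More promoter-class peaks had a summit in this window than the 14 that were kept. Among them, those named for ZNF611 and ZNF333 had summits 143 and 688 bp past the end. Those named for ZNF136 and ZNF493 had summits at −303 and −782 bp from it. The count of 3′-end peaks is thus partly set by this exclusion and by how peaks were assigned.

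ZNF737 had the largest fold enrichment of the 3′-end peaks, 7.06 with 10 tags (4.80 to 18.4) and an FDR of 47.0%. ZNF440 had the same 7.06 with 12 tags in a 3′ UTR and an FDR of 38.0% (chr19:11944212-11944660). ZNF121 followed with 6.68 and 14 tags downstream of the gene, ZNF302 with 6.47 and 10 tags, also downstream, and ZNF799 with 6.18 and 10 tags in the last exon, 3 of 3. Their FDRs lay between 46.2% and 47.3%. Each of these rests on a tag count whose interval includes the median of 12 tags over the whole list.

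By annotation class instead (3′ UTR, downstream or last exon), there were 23 peaks at 22 genes, 11.3% (7.28 to 16.4), against 9.57% (6.50 to 13.5) for zinc finger peaks on other chromosomes, 7.25% (5.95 to 8.72) for other chromosome 19 peaks and 3.78% (3.64 to 3.93) for all other peaks. These classes are not tied to the gene named, so the share is not that of the genes' own 3′ ends. Peaks named for ZNF30, ZNF235, ZNF420, ZNF480 and ZNF579 lay upstream of their listed starts. A ZNF30 peak among them is listed in the last exon of another gene. Of the peaks in these classes, 0 of 23 reached an FDR of 5%, which allows up to 13.0% by the same limit. The strongest by score was the 3′ UTR peak named for ZNF254 (chr19:24311064-24312069), 21525 bp past the end of its listed transcript. ZNF568, whose mouse counterpart represses a placental Igf2 transcript, had a 3′ UTR peak of 5.31 with 15 tags. ZNF473, a factor in histone pre-mRNA processing, had a last-exon peak of 5.20 with 13 tags. These 3 genes were chosen after their values were seen.

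By the window, few genes had listed peaks at both ends. With no promoter-class peak counted as a 3′-end peak, both kinds were found together at 3 of the 125 genes. ZNF440 had a TSS peak of 6.44 with 33 tags and an FDR of 18.0% beside its 3′ UTR peak of 7.06. ZNF737 had promoter peaks of 6.18 and 5.09 with 11 and 16 tags. ZNF345 had a promoter peak of 6.18 with 10 tags and 3′-end peaks of 5.82 and 5.30 with 17 and 10 tags. By annotation class, 8 genes had a promoter peak and a peak in a 3′ class, but the class is not tied to the gene named. The 3′ UTR peak named for ZNF480, for example, had its summit at −5602 bp, upstream of the listed start. ZNF567 differs, with a last-exon peak (6 of 6) of 13 tags in its own gene beside its TSS peak of 28 tags. The window misses that last-exon peak, whose summit lies at −7596 bp from the end of the listed transcript. The 8 are therefore not a count of genes with peaks at both of their own ends, and the 3 can miss such genes.

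Most of the 125 genes had 1 peak. There was 1 peak at 76 genes, 2 at 33 and 3 or more at 16. The 204 member peaks carried 125 names, and the 1421 other chromosome 19 peaks 914. The 303 zinc finger peaks on other chromosomes carried 143 names, and the 67071 peaks of the whole list 26257. ZNF536, which restrains neuronal differentiation, had the most with 7, of 10 to 13 tags each and fold enrichments of 5.14 to 7.06, with FDRs of 43.84% to 48.05% and 0 in a promoter. Its listed transcripts are long, up to 185648 bp. ZNF737 and ZNF83 had 6 peaks each, and ZNF331, ZNF480, ZNF544 and ZNF567 had 4 each. At ZNF331 the 4 peaks had 39, 14, 28 and 14 tags in order along the chromosome, the highest at a TSS. At ZNF567 the TSS peak had 28 tags and the other 3 had 11 to 13. The TSS peak also held the most at ZNF544, with 47 tags against 10 to 12 in the others, and at ZNF83, with 68 against 10 to 21. At ZNF480 an intronic peak held the most, 16 tags, and its promoter peak had 10. At ZNF737 the highest count, 16, was shared by an intronic and a promoter peak.

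Names and positions did not always point to the same gene. Of 59 member peaks in exons or introns, 43 lay in the gene they were named for and 16 in another gene, as listed. The sources used here do not say how reads shared by near-identical zinc finger copies were placed, and values of close paralogs are uncertain for that reason.

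By position, the member transcripts fell into 19 groups separated by gaps of more than 500 kb, and 8 groups with at least 5 genes held 106 genes and 172 peaks. Their median fold enrichments ranged from 5.53 to 6.33. Promoter shares ran from 18.2% (2 of 11 peaks) in the group led by ZNF728 to 61.1% (11 of 18) in the group led by ZNF69. The group from 52084621 to 54081643 had the most member peaks, 38 at 19 genes over 1.997 Mb. Of these, 10 overlapped a TSS, and the group held the called peaks of ZNF347 and ZNF649. Counts were not scaled to span, and the group led by ZNF284 had 19 peaks at 14 genes over 0.967 Mb. The most distal group, from 57751973 to 58989491, had 23 peaks at 18 genes, 10 at a TSS and 5 at an FDR of at most 20%. The group from 19779710 to 22034927 had 20 peaks at 12 genes, 1 at a TSS and 0 at that limit.

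The leading peaks of the groups were uneven. ZNF559 (9.51), ZNF284 (9.22, 34 tags, FDR 10.3%), ZNF69, ZNF420 and ZNF347 led theirs with at least 28 tags. ZNF101 led with 8.36 and 17 tags (FDR 27.6%), ZNF728 with 8.08 and 14 tags in distal sequence (FDR 35.0%) and ZNF776 with 7.82 and 12 tags (FDR 43.9%). The last 3 had counts whose intervals include 12 tags, the median of all peaks. ZNF628 and ZNF787, which had the FDRs of 0, lay outside the 8 larger groups.

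**Figure D3:**
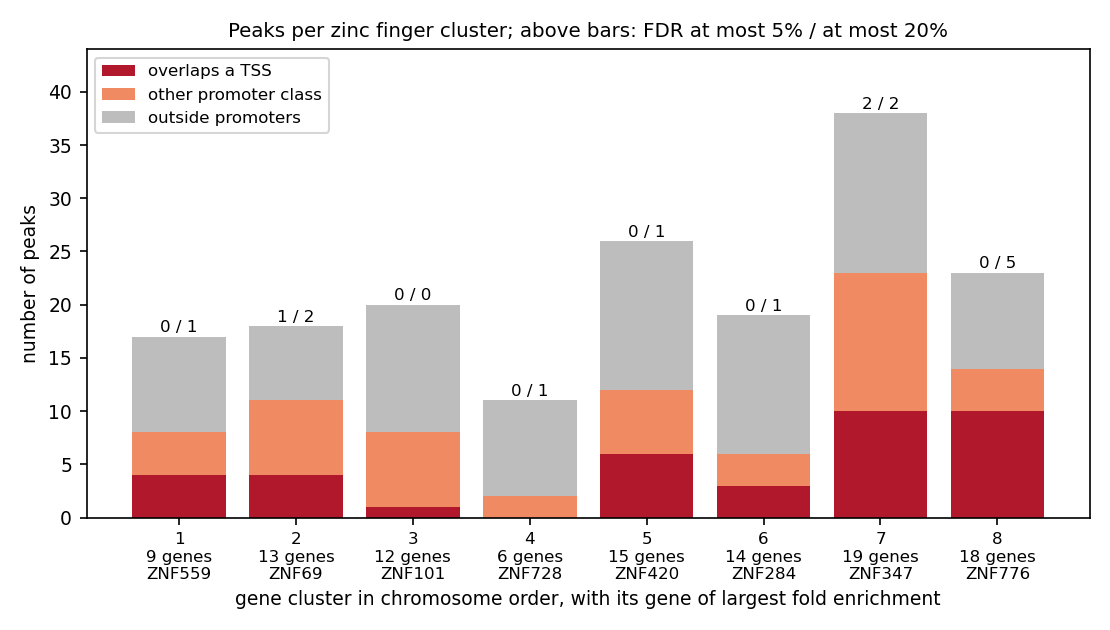
Bars give the number of member peaks in each of the 8 groups of at least 5 zinc finger genes, in chromosome order, split by position. The labels over each bar count the peaks at an FDR of at most 5% and of at most 20%, and the seventh group, led by ZNF347, has the most peaks, 38.

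Within the spans of these 8 groups there were 336 listed peaks of any name, 29.8 per Mb (26.7 to 33.2), against 27.1 per Mb (25.7 to 28.6) in the rest of chromosome 19. At an FDR of at most 5% the spans had 6 peaks, 0.533 per Mb (0.195 to 1.16), against 51 and 1.07 per Mb (0.799 to 1.41) in the rest. Both pairs of counting intervals overlapped. The spans were drawn only from transcripts that have a listed peak, which by itself favours a higher density of listed peaks inside them. The rest runs from the first to the last listed peak of the chromosome, with any stretch where no peak could be listed. Of the member peaks, 164 lay in the spans and 40 in the rest. The densities are thus not like for like.

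Counted by gene, promoter peaks were about as frequent at these genes as over all genes. All 125 member symbols matched a RefSeq protein-coding gene. Of the 240 numbered zinc finger genes that RefSeq places on chromosome 19, 81 had a promoter peak, 33.8% (27.8 to 40.1), where 33.1% of all 20033 protein-coding genes had one. The extra gene is ZNF875, listed under its older symbol HKR1. Zinc finger genes on other chromosomes had 34.6% (28.6 to 41.0) and other chromosome 19 genes 31.7% (29.1 to 34.4). A TSS peak was found at 16.2% (11.8 to 21.5) of the 240 genes and 13.8% of all genes, and any peak at 52.5% (46.0 to 59.0) and 56.3%. No peak was named for 114 of the 240.

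With an FDR of at most 20% the promoter count was 16 of 240, 6.67% (3.86 to 10.6), where 5.44% of all genes were called. Limiting the FDR to at most 5% left 5 of 240, 2.08% (0.68 to 4.79), where 2.47% were called. The highest promoter fold enrichment per gene had a median of 6.18 in the 240 genes and of 6.18 over all genes. These shares lay near the background, and the intervals include it.

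**Figure D4:**
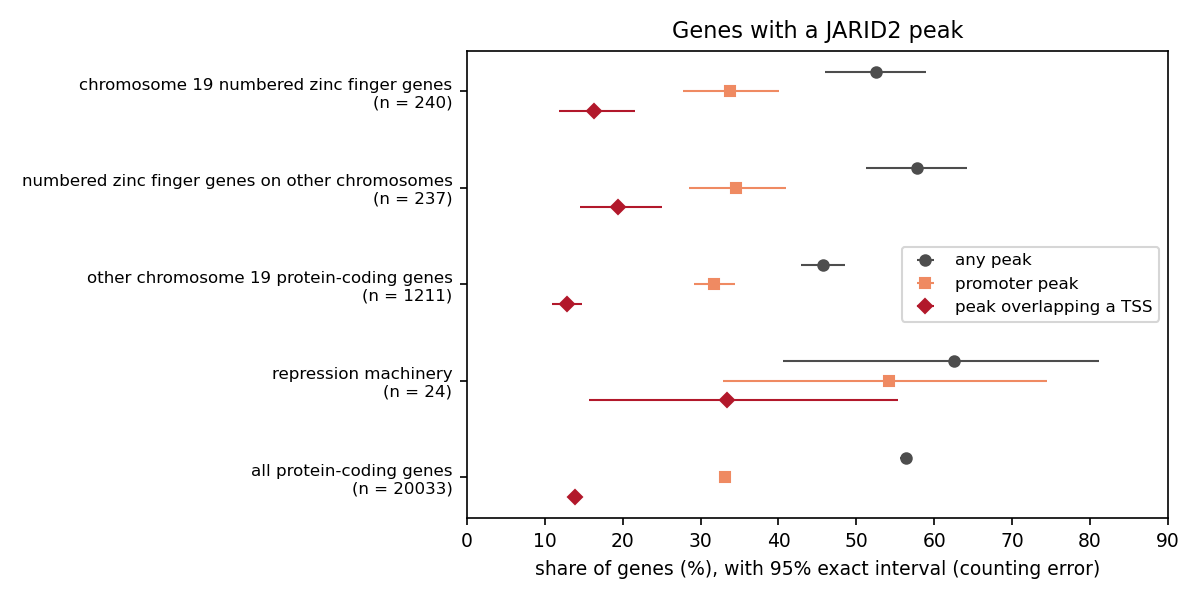
Points give the share of genes in percent with any peak, a promoter peak or a peak overlapping a TSS, with exact 95% intervals, for 5 gene sets. The chromosome 19 zinc finger genes (33.8% with a promoter peak) sit beside all protein-coding genes (33.1%), and the 24 repression machinery genes have the widest intervals.

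The promoters of these genes were compared by sequence, from the 210 of 240 that have an entry in the RefSeq table. Their median G and C content was 60.0% and their median number of CpG pairs 20, against 62.7% and 22 over all 15842 protein-coding promoters. Promoters with a promoter peak had 61.0% and 21 (72 genes), and those without had 59.5% and 20 (138 genes). Most of these promoter peaks are weak, with a median FDR of 39.6% over the 95, so a listed peak is not a measure of binding by itself. CCAAT, on either strand, was found in 52.9% of the 210 promoters and 36.4% of all promoters, with 52.8% among those with a promoter peak and 52.9% without. The E2F-type letters were in 13 of 72 (18.1%) with a promoter peak and 7 of 138 (5.07%) without, against 8.60% of all promoters. Among the 35 with a TSS peak the E2F-type share was 11.4%, and it was 12.2% in TSS-peak promoters of other genes. YY1-type letters were in 8.57% of the 210 and 7.63% of all, and TATAAA in 1.90% and 9.63%. Matches to CCAAT and YY1-type can overlap, and these are counts of letters in a fixed window around the RefSeq start. As at ZNF584, that window can lie outside the gene's peak.

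The genes of the machinery that works with KRAB zinc finger proteins were looked at as a list of 24. Promoter peaks were found at 13 of the 24, 54.2% (32.8 to 74.4), where 33.1% of all genes had one. With the FDR held to at most 5% there were 2, 8.33% (1.03 to 27.0), where 2.47% of all genes were called, a value inside that interval. At an FDR of at most 20% there were 5, 20.8% (7.13 to 42.2), where 5.44% of all genes were called. A TSS peak was found at 8 of the 24, 33.3% (15.6 to 55.3), where 13.8% of all genes had one. These last intervals lie above the share over all genes, a difference that was not tested. HDAC2, a histone deacetylase, had 18.8 with 57 tags (43.2 to 73.9) and an FDR of 0 at its TSS (chr6:114291991-114293093). TASOR, a subunit of the HUSH silencing complex, had 15.94 with 124 tags (103 to 148) and an FDR of 0 at its TSS (chr3:56716016-56717903). Both exceeded the 13.89 of ZNF628. SETDB1 had a TSS peak of 6.06 with 26 tags and an FDR of 19.7%, and 0 peaks were named for 9 genes, TRIM28, CBX1, CBX3, CBX5, DAXX, MORC2, SUV39H1, EHMT2 and CHD4. ZNF274, the list's member on chromosome 19 that is also a zinc finger gene, had a TSS peak of 5.56 with 37 tags (26.1 to 51.0) and an FDR of 14.1% (chr19:58694371-58695298), and no peak at its 3′ end.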

How the data were processed

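JARID2 ChIP-seq of MDA-MB-231 cells was analysed from the authors' annotated peak list of 1 library. The submitters' processing notes name hg19, ChIPseeker, MACS2, MACS, bcl2fastq and Bowtie 0.12.8, without roles. Thresholds, duplicate filter and use of the input were not given in those notes. Each deposited row gives a peak's tags as a whole count, its fold enrichment as a linear ratio and its FDR in percent, per the file headers. The score column, deposited with a damaged header, was taken as −log10 p times 10 because of where it stands and because it starts at 30.

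Members and gene lists were chosen with earlier results of these data known. Shares of peaks and medians were computed with Python 3.11.15, pandas 2.3.3 and SciPy 1.17.1, and the functions were checked on simulated peaks. Genes named are those called at an FDR of at most 5% with the peak just outside, the 10 with most tags, those with peaks at both ends, those with most peaks, the leader of each group, the 5 highest 3′-end peaks and called machinery genes. Others are said to be chosen after their values were seen, which also holds for the 2 non-promoter peaks at an FDR of at most 20%, the 5 reclassified by peak edge, and SETDB1, ZNF274, ZNF875 and the machinery genes with 0 peaks. Symbols were matched to RefSeq (GRCh38.p14) by symbol or by a synonym of 1 gene, for names only. Zinc finger counts per protein, planned earlier, were not run because protein sequences were not used here.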

Additional observations from a re-analysis of the deposited data

How the results depend on the processing

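The values below hold for the settings run. Of the 6 summary values, merging peaks within 1 kb and admitting every symbol of ZNF and a digit left each within its interval or within 1.5 times its count. Restricting to stricter peaks changed most of them. At −log10 p of at least 5 (43 peaks) the promoter share was 76.7%, the 3′-end share 0, the median fold enrichment 7.06, the genes with a promoter peak 33 and those with both ends 0. At an FDR of at most 20% (17 peaks) these were 88.2%, 0, 7.82, 15 and 0. Fewer peaks by construction lower the gene counts. A promoter reach of 1 kb gave a promoter share of 29.9%. The 3′ classes, which are not tied to the gene named, gave a share of 11.3% and 8 genes that also had a promoter peak. Taking −log10 p of at least 5 as the call gave 21.1% of members called, and an FDR of at most 10% gave 3.43%. Measuring the promoter reach from the nearer peak edge, chosen after seeing the data, gave 49.0% and 85 genes. No paired analysis was possible because there is 1 library in each group. Most peaks rest on few tags, so differences of a few tags between genes were not detectable at this depth.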
